A study of Homo sapiens with 2 samples.

Results

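The 8 genes described here encode transcription factors of cerebellar and other neural lineages: ATOH1, OTX2, ZIC1, ZIC2, PAX6, BARHL1, NEUROD1 and SOX2. They were taken by name, with earlier results of these data known, and each was represented by 1 transcription start site on the hg19 build. A gene was scored as having a peak when a ZFX peak overlapped the 5 kb on either side of that site. ZFX, a regulator of transcription with zinc fingers, takes its name from the X chromosome. Its sites were mapped with ChIP-seq, the sequencing of DNA precipitated together with a protein by an antibody. The cells were DAOY, a widely used line from a human medulloblastoma, grown in culture with no stated treatment. The study held 2 samples with 1 library each, a precipitation with a rabbit antibody against ZFX and sheared chromatin that was not precipitated, the input. All peaks below come from the ZFX precipitation, and the input was not used here. The deposited list held 14471 peaks on 24 chromosomes, with a median score of 108.9 (lowest 50, highest 3233) and a median width of 481 bp. Read depth is unknown and there was no replicate, so no value below has an error from replicates and no difference was tested.

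Medulloblastoma is a tumour of the cerebellum, and part of these tumours arises from granule neuron progenitors. In those progenitors ATOH1 sets the lineage, ZIC1, ZIC2 and PAX6 are expressed as the cells multiply and mature, and BARHL1 and NEUROD1 act in their migration, survival and differentiation. OTX2 patterns the forebrain and midbrain and drives growth of other medulloblastomas, and SOX2 maintains neural stem cells. RNA was not measured in this study, so whether DAOY cells transcribe these genes was not analysed here.

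ZFX peaks lay within 5 kb of the start site in 2 of the 8 genes, ZIC2 and OTX2, each with 2 peaks. The other 6 genes had none: ATOH1, ZIC1, PAX6, BARHL1, NEUROD1 and SOX2. Of all 10 kb windows tiled along the autosomes and chromosome X, 4.15% overlapped a peak (12157 of 293282), and on the 7 chromosomes that carry these genes the share was 3.51%. These windows include gene-poor stretches and assembly gaps, and start sites of other genes on hg19 were not used here. The share is therefore that of genomic windows, not of promoters, and the count of 2 in 8 is a description. None of the 4 peaks covered a start site. Their scores ran from 53.51 to 143.05, and 2 of the 4, 1 at each gene, exceeded the median of the list. Counting peaks above that median alone therefore kept both genes, beside 2.4% of the windows.

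**Figure D1:**
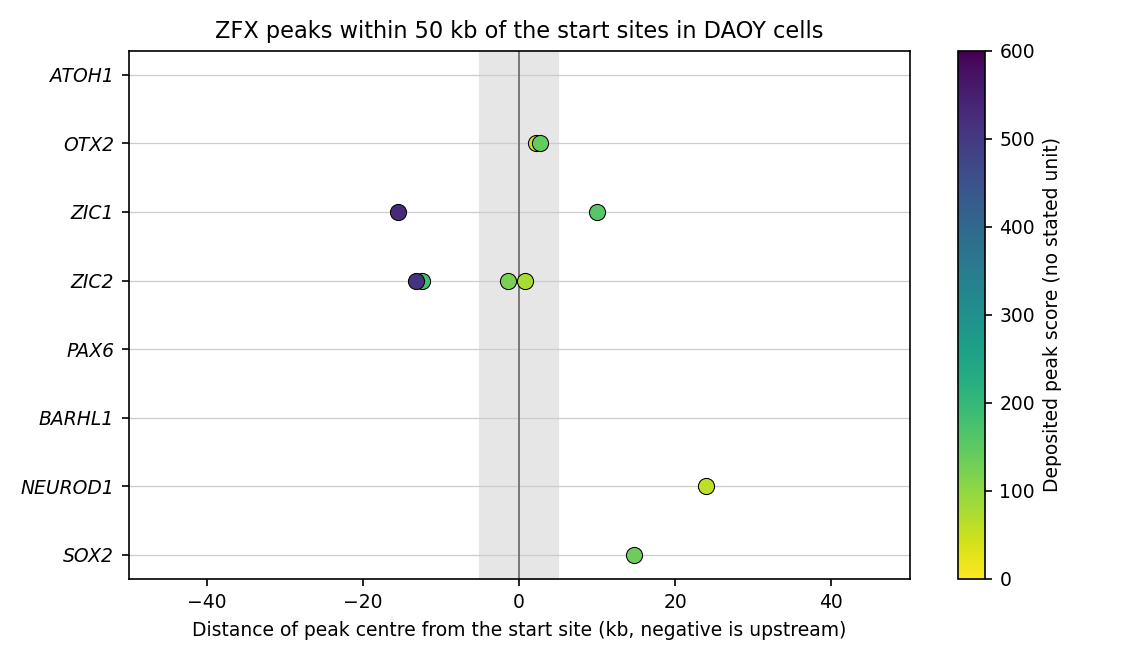
Peaks within 50 kb of each start site, with the distance of the peak centre along the direction of transcription on the horizontal axis (kb, negative is upstream), 1 row per gene, and the deposited score as colour. The grey band marks 5 kb on either side, and only the rows of OTX2 and ZIC2 have points in it, while the rows of ATOH1, PAX6 and BARHL1 are empty.

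At the ZIC genes, which encode zinc finger proteins of the dorsal neural tube and cerebellum, the start site of ZIC2 (chromosome 13, 100634026, plus strand) was the one closest to a peak. A peak of 377 bp with a score of 79.22 began 518 bp downstream of it (chr13:100634544-100634920). A second peak of 549 bp with a score of 121.74 ended 1196 bp upstream (chr13:100632282-100632830). The start site thus lay in a peak-free gap of 1713 bp, with peaks called on both sides and none over it. Higher scores were found farther upstream, where 2 peaks lay 36 bp apart. The nearer of them, at 11.9 kb (chr13:100621240-100622083), scored 182.74. The farther one, at 12.8 kb (chr13:100620431-100621203), scored 511.14 and stood at rank 1142 of the list, in the 92.1st percentile of scores. These peaks lay on the side of ZIC5, the paralog that stands next to ZIC2 in the RefSeq gene order of GRCh38.p14. Whether they fall inside ZIC5 was not analysed here.

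ZIC1 (chromosome 3, 147127181, plus strand) had no peak within 5 kb but 1 on each side of its start site not far beyond. Downstream, a peak of 608 bp with a score of 158.63 began at 9.65 kb (chr3:147136827-147137434). Upstream, a wide peak of 1569 bp with a score of 527.88 ended at 14.7 kb (chr3:147110921-147112489), rank 1072 and in the 92.6th percentile. It lay on the side of ZIC4, the paralog next to ZIC1 in the gene order. The ZIC genes had in common that the strongest peak within 50 kb was upstream, on the side of the neighbouring paralog, with scores of 527.88 for ZIC1 and 511.14 for ZIC2. These were also the only peaks within 50 kb of any of the 8 genes that scored above 222.6, the upper quartile of the list.

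The homeobox and paired-box genes differed among themselves. OTX2 (chromosome 14, 57277194, minus strand) had 2 peaks just downstream of its start site, 43 bp apart. The nearer one began at 1912 bp, was 419 bp wide and scored 53.51, which placed it in the 8.1st percentile of the list (chr14:57274864-57275282). The farther one began at 2374 bp, was 714 bp wide and scored 143.05, in the 60.8th percentile (chr14:57274107-57274820). When peaks at most 1 kb apart were joined, they formed 1 region. Whether they lie in an exon, in an intron or close to another annotated start of OTX2 was not analysed here, because the annotation used is on another build. No other peak was found within 230 kb of OTX2.

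PAX6 (chromosome 11, 31839509, minus strand), a paired-box and homeobox factor of eye, forebrain and granule cells, lay in a peak-free stretch of 581 kb. Its nearest peaks were upstream, at 273 kb and 24 bp apart, and lay on the side of RCN1, the next protein-coding gene. The first, of 351 bp, scored 59.46 (chr11:32112499-32112849). The second, of 811 bp, scored 688 (chr11:32112874-32113684), the highest score within 500 kb of any of the 8 genes, at rank 648. Downstream, the nearest peak was 308 kb away and scored 73.3.

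BARHL1 (chromosome 9, 135457993, plus strand), a homeobox factor known as a target of ATOH1, lay in a peak-free stretch of 263 kb within a region rich in peaks. Its nearest peak, 1363 bp wide with a score of 542.54, began 87.1 kb downstream (chr9:135545102-135546464), on the side of DDX31. Within 500 kb of its start site there were 8 peaks, more than for any other of the 8 genes, and the nearest upstream peak was 175 kb away with a score of 114.74.

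Among the basic helix-loop-helix genes, ATOH1 (chromosome 4, 94750078, plus strand) was the farthest from any peak. Its nearest peak began 379 kb downstream and scored 95.01 (chr4:95129036-95129460), on the side of SMARCAD1, the next protein-coding gene. Upstream, the nearest peak was 4.60 Mb away and scored 67.54. The peak-free stretch around ATOH1 was 4.98 Mb long. It was the 4th longest of the 369 gaps between peaks on chromosome 4, and 37th of 14433 in the whole list, although any position is more likely to fall in a long gap than in a short one. NEUROD1 (chromosome 2, 182545392, minus strand) had 1 weak peak within 50 kb, of 210 bp and a score of 59.82, at 23.8 kb downstream (chr2:182521386-182521595), on the side of CERKL. Its nearest upstream peak was 211 kb away and scored 184.45. Whether the peaks listed for ZIC1, PAX6, BARHL1, ATOH1 and NEUROD1 lie in or at the start of neighbouring genes was not analysed here.

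SOX2 (chromosome 3, 181429712, plus strand), which encodes a factor with a high mobility group box, stands inside the noncoding gene SOX2-OT in the RefSeq annotation. It had 1 peak within 50 kb, of 464 bp with a score of 133.83, which began 14.5 kb downstream (chr3:181444208-181444671). No second peak was found within 500 kb, and the nearest upstream peak was 722 kb away.

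Ordered by the nearest peak, the genes ran from ZIC2 (0.518 kb) and OTX2 (1.91 kb) through ZIC1 (9.65 kb), SOX2 (14.5 kb) and NEUROD1 (23.8 kb) to BARHL1 (87.1 kb), PAX6 (273 kb) and ATOH1 (379 kb). The median of the 8 distances was 19.1 kb. As a description of the list, the distance was also measured at 293305 positions spaced every 10 kb between the outermost peaks of each chromosome, where the median was 166.7 kb (interquartile range 46.6 to 535.8 kb). Of these positions, 0.752% were as close to a peak as ZIC2 and 1.86% as close as OTX2. For ZIC1, SOX2 and NEUROD1 the shares were 7.31%, 10.3% and 15.4%. BARHL1 with 36.5%, PAX6 with 60.8% and ATOH1 with 67.9% lay in the middle of the range. On their own chromosomes the shares were 49.4% for ATOH1, since chromosome 4 has few peaks, and 64.8% for PAX6. With 8 genes chosen by name and no start sites of other genes for comparison, these shares place each gene in the list and do not show that the genes differ from other genes.

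**Figure D2:**
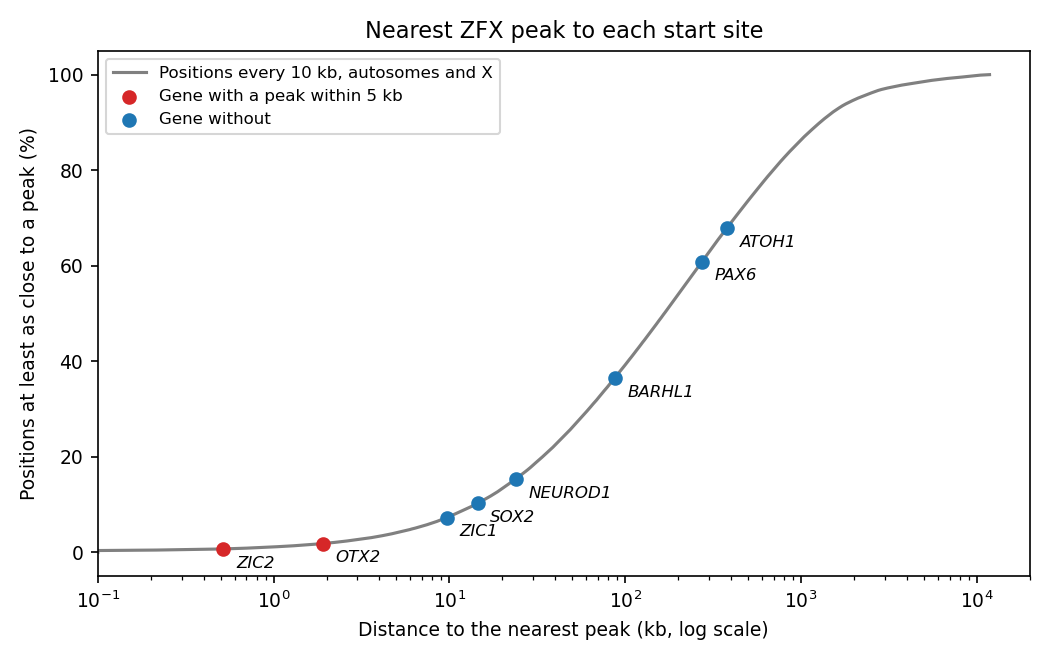
Distance from each start site to the nearest peak edge (kb, log scale) against the share of positions spaced every 10 kb that are at least as close to a peak (%). The grey curve is the distribution over all positions, red points are the genes with a peak within 5 kb and blue points the others, and the points run from 0.752% for ZIC2 to 67.9% for ATOH1.

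Widened to 50 kb, 5 of the 8 genes had a peak, with 10 peaks in all: 4 at ZIC2, 2 each at OTX2 and ZIC1, and 1 each at NEUROD1 and SOX2. Of 100 kb windows tiled in the same way, 26.1% overlapped a peak. ATOH1, PAX6 and BARHL1 had none. The median score of the 10 peaks was 138.4, and 7 of them exceeded the median of the list. The 6 peaks between 5 and 50 kb included the strong ones upstream of ZIC1 and ZIC2, so for these genes the highest scores lay outside the 5 kb window.

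How peak density around the start sites compared with that of the chromosome depended on the distance taken. Within 500 kb on either side, 6 of the 8 genes had fewer peaks per Mb than the span of their chromosome. Within 100 kb, 6 of the 8 had more, and ATOH1 and PAX6 had no peak. At that distance a single peak, as at BARHL1, NEUROD1 and SOX2, was enough to exceed the chromosome, at BARHL1 only narrowly. The share of all positions with fewer or more peaks per Mb than their chromosome was not computed, so both counts are descriptions. The values that follow are for 500 kb. ZIC2 had 7.0 peaks per Mb against 2.20 on chromosome 13, and BARHL1 had 8.0 against 4.98 on chromosome 9. OTX2 had 6.0 against 7.38 on chromosome 14, and PAX6 had 3.0 against 5.59 on chromosome 11. ZIC1 and SOX2, both on chromosome 3 with 3.99 peaks per Mb, had 2.0 and 1.0. NEUROD1 had 2.0 against 4.26 on chromosome 2, and ATOH1 had 1.0 against 1.94 on chromosome 4. ZIC2 thus had the closest peak and a dense neighbourhood, but these traits count some of the same peaks. Of its 7 peaks within 500 kb, 4 lay within 50 kb. The region around BARHL1 was dense and its start site was not close to a peak. Together these regions held 30 peaks, of which 18 scored above the median of the list.

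**Figure D3:**
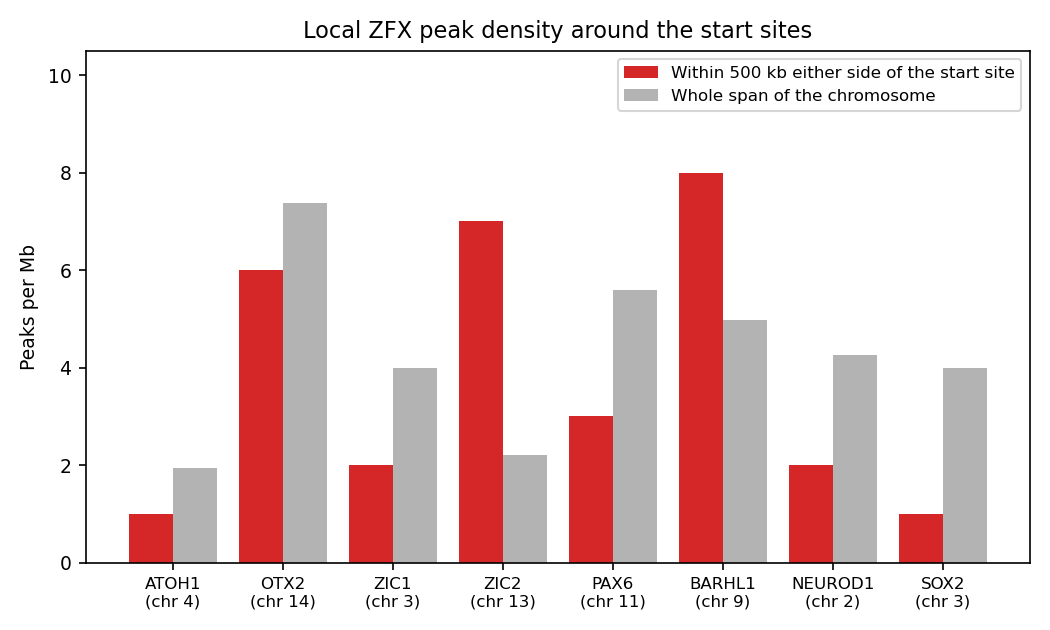
Peaks per Mb within 500 kb on either side of each start site (red bars) beside the peaks per Mb over the span of the same chromosome (grey bars). The red bar exceeds the grey one for ZIC2 (7.0 against 2.20) and BARHL1 (8.0 against 4.98) and is lower for the other 6 genes at this distance. Within 100 kb, not plotted, 6 of the 8 genes exceeded their chromosome. The share of all positions that do so was not computed at either distance.

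Promoter sequences were read from RefSeq on GRCh38.p14, from 250 bases before to 50 after each annotated start. All 8 genes were matched, with 17 promoters in all, 9 of them of PAX6 and 2 of OTX2. Which of these corresponds to the hg19 start site of the rule was not established for those genes. None of the 4 peaks near ZIC2 and OTX2 reaches the stretch from 250 bases before to 50 after the start site used, and the sequence under the peaks was not analysed here. The 4 sequences below are shown 5′ to 3′ because they set the genes with a close peak, ZIC2 and OTX2, beside those farthest from one, PAX6 and ATOH1. For OTX2 the more upstream of its promoters is given. For PAX6 it is the second from upstream, the most upstream of its 9 that holds the letters marked below. Capitals mark AGGCCT, the core of the known ZFX motif, which reads the same on both strands. The OTX2 and PAX6 promoters shown hold it, while the other OTX2 promoter and most of the 9 PAX6 promoters, the most upstream included, do not. The positions are chr13:99981534-99981833 (plus strand) for ZIC2, chr14:56810430-56810729 (minus) for OTX2, chr11:31812671-31812970 (minus) for PAX6 and chr4:93828503-93828802 (plus) for ATOH1, all on GRCh38.p14 and not comparable with the hg19 peak positions.
ZIC2: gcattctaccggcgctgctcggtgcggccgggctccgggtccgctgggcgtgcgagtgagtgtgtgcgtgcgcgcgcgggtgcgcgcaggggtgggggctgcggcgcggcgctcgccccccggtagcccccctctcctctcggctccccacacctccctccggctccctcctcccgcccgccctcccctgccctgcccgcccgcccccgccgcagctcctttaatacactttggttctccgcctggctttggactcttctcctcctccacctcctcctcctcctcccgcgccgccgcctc
OTX2: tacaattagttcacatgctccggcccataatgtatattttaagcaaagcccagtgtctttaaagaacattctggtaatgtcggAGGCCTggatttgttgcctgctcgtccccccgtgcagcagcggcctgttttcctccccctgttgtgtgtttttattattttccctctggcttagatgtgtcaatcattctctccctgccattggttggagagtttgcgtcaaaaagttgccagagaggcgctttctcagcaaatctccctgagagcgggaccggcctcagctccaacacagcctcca
PAX6: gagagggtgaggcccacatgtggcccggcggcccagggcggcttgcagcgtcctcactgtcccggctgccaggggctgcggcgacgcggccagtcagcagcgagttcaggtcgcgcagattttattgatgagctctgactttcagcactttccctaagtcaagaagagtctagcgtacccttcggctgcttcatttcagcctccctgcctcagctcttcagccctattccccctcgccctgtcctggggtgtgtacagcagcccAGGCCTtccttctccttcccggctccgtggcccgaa
ATOH1: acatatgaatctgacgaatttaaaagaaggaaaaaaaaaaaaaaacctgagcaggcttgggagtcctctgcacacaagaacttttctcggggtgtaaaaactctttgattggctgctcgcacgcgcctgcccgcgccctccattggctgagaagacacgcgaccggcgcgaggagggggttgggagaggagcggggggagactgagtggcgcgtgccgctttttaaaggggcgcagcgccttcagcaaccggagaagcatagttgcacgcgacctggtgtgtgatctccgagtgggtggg

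The letters AGGCCT were present in the promoters of 2 of the 8 genes, OTX2 and PAX6. In OTX2 they began 167 bases before the annotated start. In PAX6 they were in 2 of 9 promoters, beginning 14 bases after the start in the promoter shown and 35 after it in the fifth from upstream. Among all 27303 genes with a promoter in the table, 13.0% had the letters in at least 1, and among all 35114 promoters 10.9%. OTX2 had both a match and 2 peaks within 5 kb. ZIC2, with the closest peaks, had no match in this window, and PAX6, with 2 matches, had its nearest peak 273 kb away. Whether matches go with peaks was not tested. A match is only a match of letters, and a gene with 9 promoters has more chances to hold one. The shorter letters AGGCC or their reverse complement GGCCT were in the promoters of 4 of the 8 genes (OTX2, PAX6, NEUROD1 and SOX2), and 60.2% of all genes in the table had them in at least 1 promoter.

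In base composition, the promoter of ZIC2 stood highest with a GC content of 75.0%, in the 91.0th percentile of all promoters, followed by NEUROD1 with 70.3%. ATOH1 had 56.0%, below the median of 58.7% for all promoters, and the OTX2 promoters had 49.7% and 50.3%. The ratio of observed to expected CpG was highest for ATOH1 (0.97) and lowest for one of the PAX6 promoters (0.31), beside a median of 0.58 for all promoters. The genes with a close peak were thus unlike each other, with a ratio of 0.89 for ZIC2 and 0.49 and 0.35 for OTX2. Of a list of 36 other neural transcription factors, 26 were in the promoter table. AGGCCT was found in promoters of 3 of the 26 (PAX3, TLX3 and ZIC5), close to the share of 13.0% over all genes in the table. Peaks were not assigned to this list because its start sites on hg19 were not used here.

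**Figure D4:**
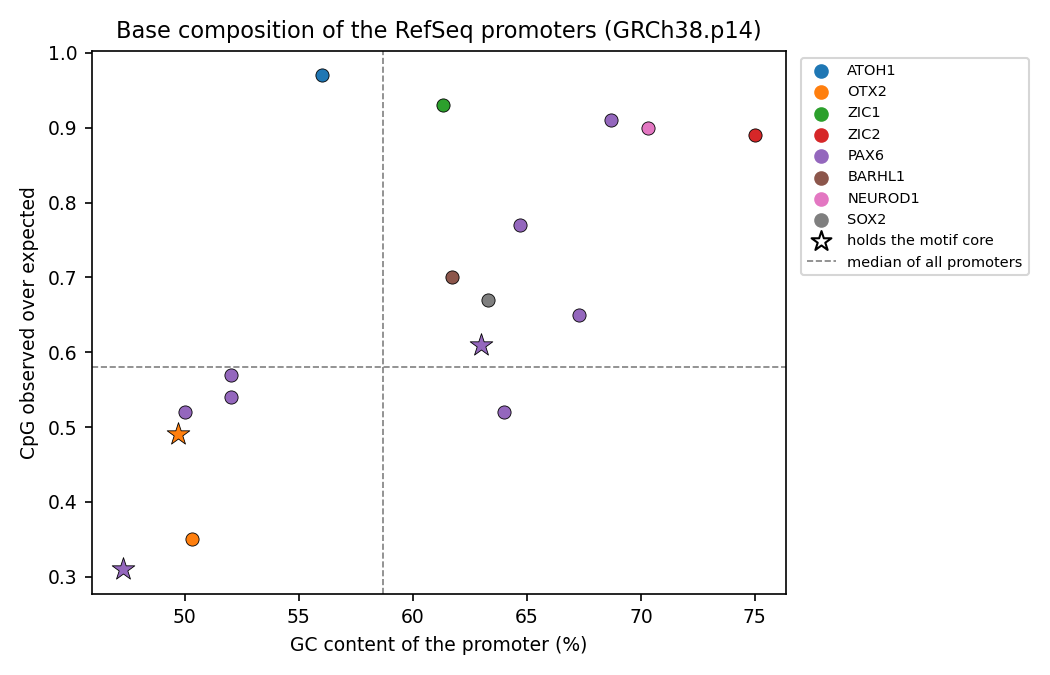
GC content (%) against the ratio of observed to expected CpG for the 17 RefSeq promoters of the 8 genes, coloured by gene, with stars for promoters that hold AGGCCT and dashed lines at the medians of all promoters (58.7% and 0.58). ZIC2 lies at the far right at 75.0% GC, while the OTX2 promoters lie at 49.7% and 50.3%.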

How the data were processed

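ZFX ChIP-seq in DAOY cells was deposited as 1 peak list for the ZFX library. Samples were grouped by the antibody in the labels. The authors deposited a start, an end and a score per peak, and the unit of the score is not stated. The peak names begin with MACS, a peak caller. Its version, its threshold and whether the input served as its control are not stated in the sources used. Bowtie2 2.0.0 and hg19 are named without their roles, per the submitters' processing notes, and positions were taken to be on hg19. Starts were taken as counted from 0 and are printed counted from 1. Scores were compared only within this list.

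Distances ran from the start site to the nearest edge of a peak. Windows and positions every 10 kb were laid between the outermost peaks of each autosome and chromosome X. No test was run, since 1 library leaves no replicate error, and the distance functions were tested on simulated peaks. Genes, start sites, lists and measures were chosen with earlier results of these data known. The rule for names took all 8 genes, the peaks within 5 kb, the nearest peak on each side, the highest score within 500 kb, and genes next to a member. Other peaks within 50 kb were described as well. Gene order came from RefSeq on GRCh38.p14, and no position was converted between builds. Alternatives changed the distance, the score limit, the overlap, joining of peaks, the windows and the motif letters. Python 3.11.15, numpy 2.4.6, pandas 2.3.3 and matplotlib 3.10.9 were used.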

Additional observations from a re-analysis of the deposited data

How the results depend on the processing

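Of 29 alternatives for 6 results, 14 stayed within 1.5 times the value reported. The 100 kb windows were the 1 alternative added after these results were seen. The genes and measures themselves were chosen with earlier results of these data known. Genes with a peak numbered 1 within 1 kb (ZIC2) and 5 within 50 kb, and their peaks 1 and 10. Among peaks above the median score, or scoring 100 or more, the 4 peaks fell to 2, 1 each at ZIC2 and OTX2, and the median distance to the nearest peak rose from 19.1 to 50.8 kb under either limit. NEUROD1 then had its nearest peak above the median score at 211 kb and ATOH1 at 4314 kb. Leaving out peaks can only lengthen a distance or leave it unchanged. The positions every 10 kb were not measured again under these limits. Neighbourhoods denser than the chromosome numbered 6 with 100 kb either side in place of 2, since all genes but ATOH1 and PAX6 have a peak there. The share of all positions denser than their chromosome was not computed. The share of windows with a peak was 2.4% for peaks above the median score, 1.11% for 2 kb, 7.55% for 20 kb and 26.1% for 100 kb windows, which follows from fewer peaks or from window length. The letters AGGCC and GGCCT are each other's reverse complement and both strands were searched, so these 2 alternatives were 1 search. It gave 4 genes in place of 2. No paired analysis was possible because only 1 library had peaks. Depth is unknown, so a site too weak to be called cannot be told apart from no binding.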
